A study of Mus musculus with 9 samples.

Results

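The 9 genes described here, *Cd40*, *Cd80*, *Cd86*, *Cd274*, *Pdcd1lg2*, *Icosl*, *Vsir*, *Havcr2* and *Lgals9*, encode costimulatory and checkpoint molecules of antigen-presenting cells. They were chosen by name and matched through their Ensembl identifiers, and all 9 were found among the 53801 genes that each count file lists. All 9 also passed the filter on low counts in every comparison. Counts were available for 9 libraries of sorted monocytes/macrophages, gated as CD11b+CD45high cells that were negative for CD11c and Ly6G, a gate that can also hold activated microglia. All mice were male C57BL/6J mice of 9 weeks. In the stroke groups the distal middle cerebral artery had been permanently occluded (dMCAO) and the left common carotid artery ligated. The 3 stroke brain libraries held cells of the ipsilesional hemisphere 5 days after dMCAO, each pooled from 5 mice. The 3 stroke blood libraries came from the blood of 1 mouse each at the same day. The 3 sham blood libraries came from the blood of 1 sham-operated mouse each, and the sources used here do not name their day. Cells of sham-operated brains were not analysed here.

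T cells that recognise a peptide on an MHC molecule need a further signal from the presenting cell, and the B7 family gives it. CD80 and CD86 engage CD28 to activate the T cell and CTLA-4 to restrain it. PD-L1 and PD-L2, the products of *Cd274* and *Pdcd1lg2*, bind PD-1 and dampen T cells that are already active. ICOS ligand, from *Icosl*, sustains helper T cells through ICOS. VISTA, from *Vsir*, is an inhibitory B7-like protein that is abundant on resting myeloid cells. CD40 is the receptor through which CD40 ligand on helper T cells instructs the presenting cell. TIM-3, from *Havcr2*, is known from exhausted T cells but is also made by monocytes, dendritic cells and microglia, and galectin-9, from *Lgals9*, is a sugar-binding protein described as one of its ligands.

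Stroke brain libraries held more *Cd80*, *Cd86*, *Cd274*, *Havcr2* and *Icosl* transcript than stroke blood libraries, and the rises ran from 2.37-fold to 6.12-fold. *Vsir* was lower in the brain, while *Cd40* and *Lgals9* gave no detectable difference. Differentially expressed genes (DEGs) were called by edgeR's quasi-likelihood test on the deposited counts, with TMM scaling, where the fold change exceeded 2 in either direction and the p adjusted over all 13189 genes (Benjamini-Hochberg) was under 0.05. Of the 9 genes, 5 were DEGs, all of them higher in the brain and none lower. Among all genes tested, 21.0% were DEGs, 13.1% being higher and 7.86% lower in the brain. DESeq2 called 6 of the 9, with *Pdcd1lg2* added, and 19.2% of all genes. At an adjusted p under 0.05 with no limit on the fold, 6 of the 9 passed, against 30.6% of all genes. The median log2 fold change was 1.70 over the 9 genes and 0.06 over all genes tested. The brain libraries lay entirely above the stroke blood libraries for 5 of the 9 genes and entirely below them for 1, where 24.9% and 23.2% of all genes did so.

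Levels are given as CPM, counts per 1000000 counts of the TMM-scaled library, with mean ± SD over the 3 libraries of a group. Total counts ran from 18475118 to 22623578 per library, at which 3 counts are at most 0.162 CPM before scaling. The sorted cells carried the defining transcripts of the gate, with *Ptprc* (CD45) at 1025 to 1424 CPM and *Itgam* (CD11b, which shares 68.7% of its exon bases with another annotated gene) at 143.4 to 220.8 CPM as group means. *Ly6g* was at 0.269 to 0.301 CPM as group means. *Itgax*, which encodes the CD11c used to exclude cells, was at 94.5 ± 29.8 CPM in the brain and 14.8 ± 4.94 CPM in stroke blood. Sham blood replicate 1 stood apart from the other blood libraries, with summed erythroid markers at 944.1 CPM against 10940 to 27340 CPM.

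The upstream sequences are shown for the genes whose rise was called in every fit with a library left out, where the RefSeq promoters of GRCm38.p6 have an entry, and for *Vsir*, which was lower in the brain. Entries were matched for 7 of the 9 genes, not for *Cd40* and *Cd86*. Each sequence is read 5′ to 3′ and ends at the base before the RefSeq transcription start, which for *Cd274* and *Havcr2* lies a few bases upstream of the gene start given below, and capitals mark letters that match a searched motif.

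Cd80 (chr16:38458683-38458932, + strand): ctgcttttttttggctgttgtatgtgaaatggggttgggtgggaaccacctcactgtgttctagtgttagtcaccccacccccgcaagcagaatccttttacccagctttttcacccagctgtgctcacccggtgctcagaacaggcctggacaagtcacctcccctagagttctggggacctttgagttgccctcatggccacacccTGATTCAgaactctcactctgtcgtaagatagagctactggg
Cd274 (chr19:29367391-29367437, + strand): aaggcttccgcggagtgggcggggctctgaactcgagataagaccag
Havcr2 (chr11:46454681-46454930, + strand): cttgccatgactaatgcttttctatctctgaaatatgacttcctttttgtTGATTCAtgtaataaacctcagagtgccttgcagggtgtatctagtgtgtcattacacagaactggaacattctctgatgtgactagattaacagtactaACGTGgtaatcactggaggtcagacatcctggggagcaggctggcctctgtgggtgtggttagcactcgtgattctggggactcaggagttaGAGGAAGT
Vsir (chr10:60346601-60346850, + strand): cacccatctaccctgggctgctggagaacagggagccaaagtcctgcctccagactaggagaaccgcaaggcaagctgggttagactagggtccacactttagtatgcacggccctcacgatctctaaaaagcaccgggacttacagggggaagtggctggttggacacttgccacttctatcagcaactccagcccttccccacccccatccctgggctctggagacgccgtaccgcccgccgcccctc

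For *Cd274* only 47 bases are shown, because 185 bases of the 250-base window lie in annotated exons, where *Plgrkt* starts on the opposite strand, and 47 bases are the longest stretch outside them. In the whole 250-base windows, 7 motifs were searched on both strands: the interferon-stimulated response element (GAAA, any 2 bases, GAAA), TTCNNNGAA (STAT element), TGANTCA (AP-1), the NF-kappaB site, GAGGAAGT (PU.1), TTGCNNAA (C/EBP) and ACGTG (hypoxia response core). TGANTCA was present in *Cd80*, from -42 to -36 of the start, and in *Havcr2*, from -200 to -194, and 6.75% of all 32851 promoter windows hold it. *Havcr2* also held ACGTG, found in 16.6% of all windows, and GAGGAAGT directly before the start, found in 2.44%. The windows of *Cd274* and *Vsir* held none of the 7 motifs. Among the windows not shown, *Icosl* and *Pdcd1lg2* each held an NF-kappaB site (7.25% of all windows) and *Lgals9* an interferon-stimulated response element (2.98%). No match overlapped another, and the matches are letters in a window, not measured binding.

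*Cd80* and *Cd86* lie on the same chromosome, 1792852 bases apart (*Cd80*, chr16:38458933-38486933, + strand; *Cd86*, chr16:36603869-36666081, - strand, GRCm38). *Cd80* counts were 137, 91 and 64 in sham blood, 103, 80 and 61 in stroke blood and 489, 401 and 294 in the brain. Every brain library was above every blood library, with 294 counts in the lowest brain library and 137 in the highest blood library. The mean level was 4.86 ± 1.72 CPM in sham blood, 4.23 ± 0.884 CPM in stroke blood and 17.8 ± 5.58 CPM in the brain. Against stroke blood this was a log2 fold change of 2.10 (SE 0.32, 95% confidence interval 1.39 to 2.82, edgeR adjusted p = 0.00138). *Cd86* was the more abundant of the pair in every library, with counts of 1775, 1433 and 1086 in sham blood, 1214, 1403 and 919 in stroke blood and 3813, 5253 and 4648 in the brain. Its brain libraries were close to each other, at 185.6 to 218.0 CPM, and well above the 55.0 to 66.5 CPM of stroke blood. The log2 fold change was 1.76 (SE 0.16, 95% confidence interval 1.40 to 2.11, edgeR adjusted p = 8.59e-05). The log2 ratio of *Cd80* to *Cd86* counts within a library, which does not depend on scaling, was -3.55 ± 0.53 in the brain and -3.86 ± 0.29 in stroke blood, and the libraries overlapped (exact two-sided permutation p = 0.6, where 3 libraries against 3 cannot give a p below 0.1).

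**Figure D1:**
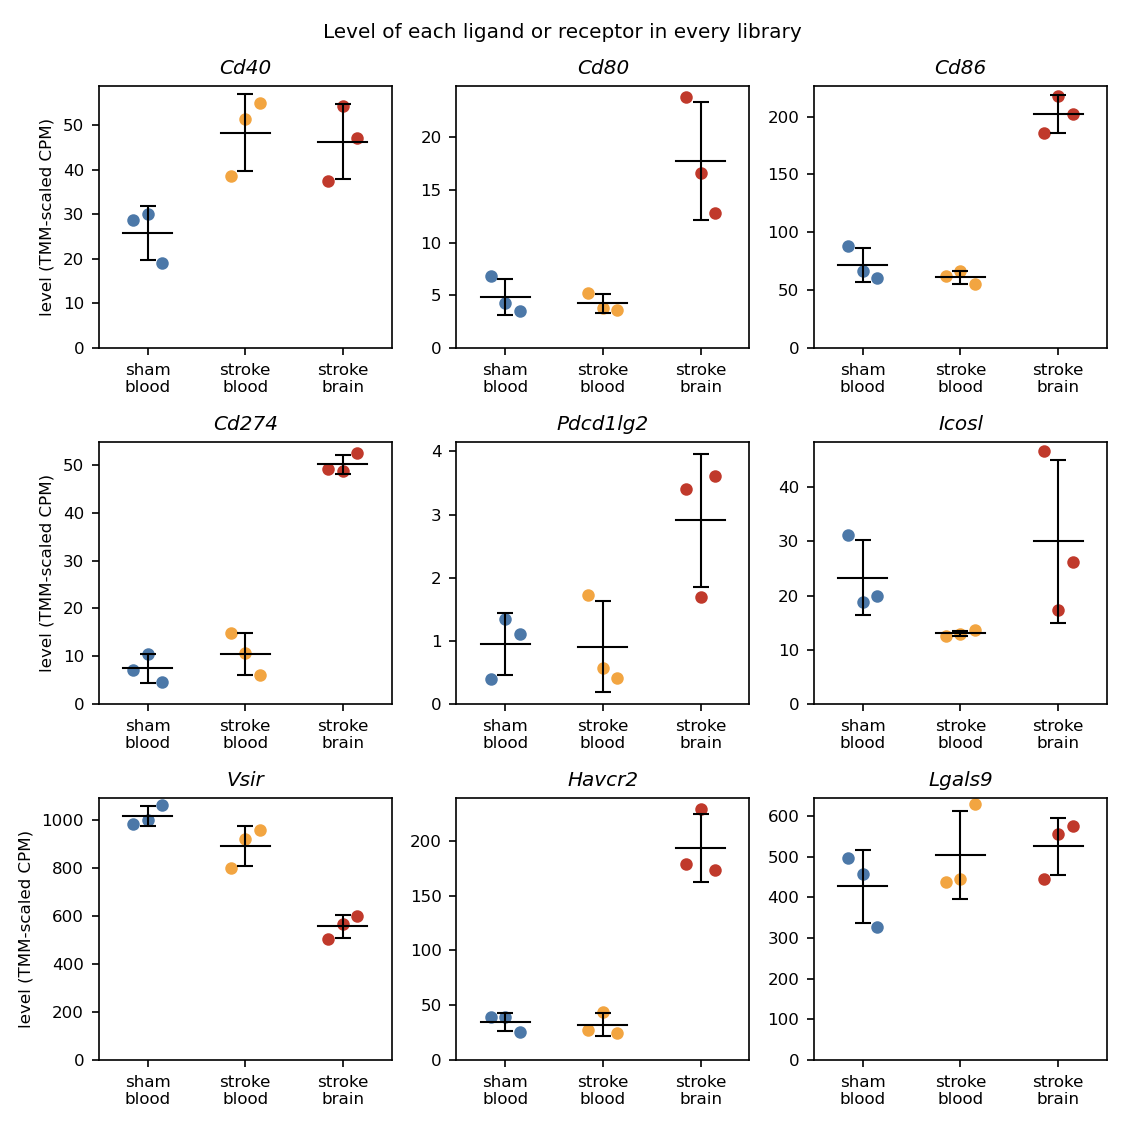
TMM-scaled CPM of the 9 genes in sham blood, stroke blood and stroke brain, with each library as a point (replicates 1 to 3 from left to right), the mean as a long bar and ± SD as whiskers; each panel has its own axis from 0. The brain points of *Cd80*, *Cd86*, *Cd274* and *Havcr2* lie above all 6 blood points, those of *Vsir* lie below them, and those of *Icosl* spread from 17.4 to 46.6 CPM.

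PD-L1 is encoded by *Cd274* (chr19:29367455-29388095, + strand) and PD-L2 by the adjacent *Pdcd1lg2* (chr19:29410919-29471157, + strand), which starts 22824 bases downstream. *Cd274* had 145, 227 and 83 counts in sham blood, 292, 226 and 101 in stroke blood and 1011, 1176 and 1204 in the brain. The blood libraries differed among themselves by up to 2.46-fold within a group, whereas the highest brain library was 1.07-fold the lowest. Mean levels were 7.46 ± 3.00, 10.5 ± 4.42 and 50.2 ± 2.00 CPM in the same order. The brain exceeded stroke blood by a log2 fold change of 2.28 (SE 0.31, 95% confidence interval 1.59 to 2.96, edgeR adjusted p = 0.00073). An antisense gene, AC119228.1, covers 511 of the 3622 exon bases of *Cd274*, and the strand setting of the counting is not given in the sources used here, so reads of the 2 genes cannot be told apart there.

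*Pdcd1lg2* was the scarcest of the 9 genes, with 8, 29 and 20 counts in sham blood, 34, 12 and 7 in stroke blood and 70, 41 and 83 in the brain. Brain replicate 2 overlapped stroke blood replicate 1 once scaled. The log2 fold change against stroke blood was 1.70 with a standard error of 0.64, and the 95% confidence interval ran from 0.28 to 3.13. The adjusted p was 0.0704 with edgeR and 0.0495 with DESeq2. It was a DEG in 1 of 6 edgeR fits with a library left out, with log2 fold changes of 1.33 to 2.54 and adjusted p of 0.034 (without stroke blood replicate 1) to 0.198. The log2 ratio of *Cd274* to *Pdcd1lg2* counts was 4.17 ± 0.57 in the brain and 3.67 ± 0.55 in stroke blood (exact two-sided permutation p = 0.4). That of *Cd80* to *Cd274*, whose proteins bind each other on the surface of a cell, was -1.54 ± 0.49 and -1.24 ± 0.45 (exact two-sided permutation p = 0.4).

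The protein-coding genes within 200000 bases of *Cd274* were examined after the values of the 9 genes had been seen. Of 5 neighbours tested, 3 were DEGs higher in the brain, where 13.1% of all genes were: *Jak2*, the kinase of interferon-gamma and many cytokine receptors, by a log2 fold change of 2.30 (SE 0.26, edgeR adjusted p = 0.000327), *Ric1* by 2.45 (SE 0.38, edgeR adjusted p = 0.00149) and the low-count *Insl6* by 1.99 (SE 0.49, edgeR adjusted p = 0.0139). The closest neighbour was not among them. *Plgrkt*, which starts 65 bases from *Cd274*, had a log2 fold change of 0.20 (SE 0.19, edgeR adjusted p = 0.453). Around the other genes, the neighbours that were DEGs higher in the brain were 0 of 6 tested for *Cd40*, 1 of 7 for *Cd80*, 2 of 4 for *Cd86*, 4 of 6 for *Pdcd1lg2* (whose window shares genes with that of *Cd274*), 3 of 8 for *Icosl*, 0 of 3 for *Vsir*, 1 of 3 for *Havcr2* and 0 of 2 for *Lgals9*, and 1 neighbour of *Icosl* was lower. The 4 around *Pdcd1lg2* were *Cd274* itself and the same 3 genes as around *Cd274*.

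ICOS ligand gave the least even result among the DEGs. *Icosl* (chr10:78069302-78083913, + strand) had 628, 406 and 359 counts in sham blood, 246, 273 and 227 in stroke blood and 958, 419 and 600 in the brain. The stroke blood libraries lay within 12.5 to 13.6 CPM of each other, and the brain libraries spread from 17.4 to 46.6 CPM, so that replicate 1 held 2.68-fold the level of replicate 2. The log2 fold change against stroke blood was 1.24 (SE 0.34, 95% confidence interval 0.49 to 2.00, edgeR adjusted p = 0.021). The call was lost in 4 of the 6 fits that left out a library: the adjusted p was 0.0819, 0.0701 and 0.0733 without stroke blood replicate 1, 2 and 3, and without brain replicate 1 the log2 fold change was 0.78 with an adjusted p of 0.0413. The other 4 DEGs, *Cd80*, *Cd86*, *Cd274* and *Havcr2*, were called in 6 of 6 such fits.

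VISTA showed the opposite direction. *Vsir* (chr10:60346851-60372684, + strand) was among the most abundant of the 9 genes, with 19836, 21465 and 19259 counts in sham blood, 15715, 19477 and 16020 in stroke blood and 10342, 13708 and 13760 in the brain. On the scaled level every brain library, at 503.5 to 599.5 CPM, was below every stroke blood library, at 800.7 to 958.6 CPM. The log2 fold change was -0.65 (SE 0.15, 95% confidence interval -0.98 to -0.32, edgeR adjusted p = 0.00995), short of the fold threshold for a DEG. Among all genes tested, 13.1% were lower in the brain at an adjusted p under 0.05 regardless of fold. With no scaling beyond library size the median log2 fold change of all genes moved from 0.06 to 0.22, and *Vsir* was at -0.49 (edgeR adjusted p = 0.0293). The gene lies within *Cdh23* on the opposite strand without sharing exon bases, and *Cdh23* was at 18.8 to 33.6 CPM as group means.

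TIM-3 transcript was higher in the brain, and that of galectin-9 did not pass the test. *Havcr2* (chr11:46454935-46481255, + strand) had 793, 847 and 455 counts in sham blood, 544, 932 and 413 in stroke blood and 3673, 5513 and 3971 in the brain. All brain libraries, at 173.0 to 228.8 CPM, were above all blood libraries, which reached 44.2 CPM. The 95% confidence interval of the log2 fold change against stroke blood was 2.04 to 3.19 (estimate 2.61, SE 0.26, edgeR adjusted p = 0.000147). *Lgals9* (chr11:78962974-78984946, - strand) had 9986, 9844 and 5897 counts in sham blood, 8617, 9382 and 10521 in stroke blood and 9167, 13386 and 13239 in the brain. These groups overlapped, and the log2 fold change of 0.10 had an interval of -0.31 to 0.50 (SE 0.18, edgeR adjusted p = 0.714). The log2 ratio of *Havcr2* to *Lgals9* counts was -1.45 ± 0.25 in the brain and -4.00 ± 0.67 in stroke blood, with all brain libraries higher, a difference of 2.55 that reached the smallest p this design allows (exact two-sided permutation p = 0.1).

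*Cd40* (chr2:165055627-165072948, + strand) did not pass the test between brain and stroke blood. Its counts were 577, 645 and 343 in sham blood, 760, 1087 and 918 in stroke blood and 772, 1310 and 1081 in the brain. Stroke blood, at 38.7 to 54.9 CPM, and brain, at 37.6 to 54.4 CPM, covered nearly the same range, and the log2 fold change was -0.03 (SE 0.21, 95% confidence interval -0.49 to 0.44, edgeR adjusted p = 0.93).

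**Figure D2:**
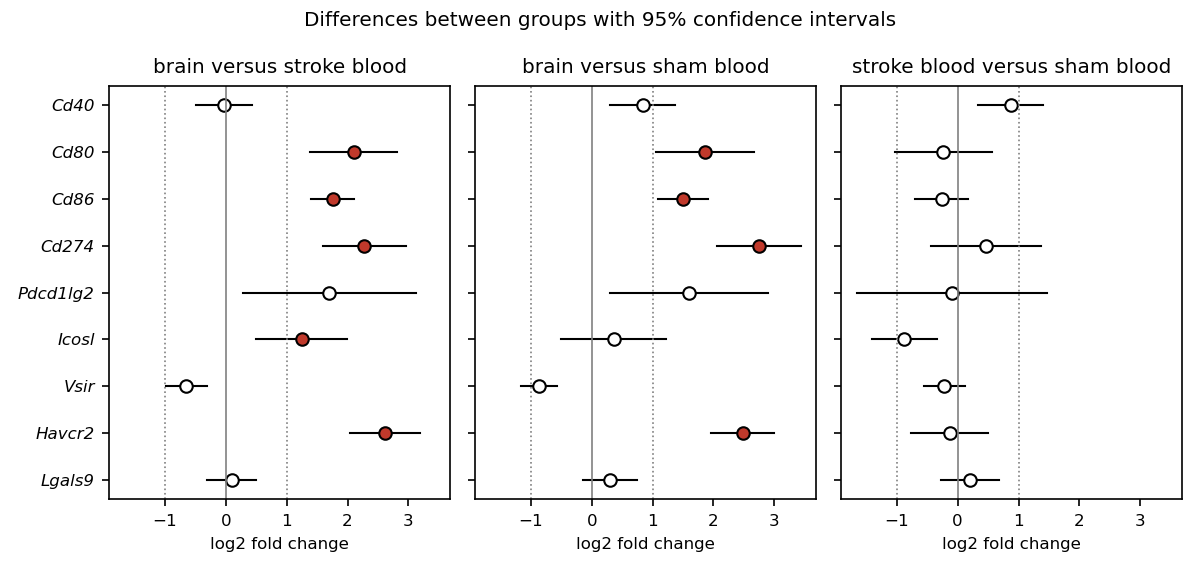
Log2 fold changes of the 9 genes by edgeR with 95% confidence intervals (lines) in brain versus stroke blood, brain versus sham blood and stroke blood versus sham blood; red points are DEGs and dotted lines mark a log2 fold change of -1 and 1. The brain comparisons hold 5 and 4 red points and the blood comparison none.

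Stroke blood was compared with sham blood to ask whether circulating cells already differed after stroke. None of the 9 genes was a DEG, against 1 of 12664 genes tested (0.0079%), and DESeq2 called 0 of the 9 and 1.06% of all genes. At an unadjusted p below 0.05, edgeR had 2 of the 9, against 12.5% of all genes. *Cd40* was higher in every stroke blood library than in every sham library, with a log2 fold change of 0.87 (SE 0.23, 95% confidence interval 0.34 to 1.40, edgeR adjusted p = 0.285, DESeq2 adjusted p = 0.0475). *Icosl* was lower in every stroke blood library than in every sham library, at -0.87 (SE 0.24, 95% confidence interval -1.41 to -0.34, edgeR adjusted p = 0.285, DESeq2 adjusted p = 0.0619). Without sham blood replicate 1, the library with few erythroid transcripts, the values were 0.95 for *Cd40* and -0.61 for *Icosl* (edgeR adjusted p = 0.146 and 0.23). The other 7 genes had log2 fold changes between -0.26 and 0.47. For *Cd274* the 95% confidence interval was -0.43 to 1.37, so that a rise above the fold threshold lies within it. The interval of *Pdcd1lg2*, -1.66 to 1.47, passed the threshold in both directions, and that of *Cd80*, -1.03 to 0.56, in the lower one. All stroke blood libraries were above all sham libraries for 1 of the 9 genes and below them for 2, *Icosl* and *Vsir*, where 9.77% and 8.29% of all genes were so.

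Compared with sham blood, the brain libraries gave 4 DEGs among the 9 genes, all higher, where 13.4% of 13020 genes tested were DEGs, 9.75% higher and 3.67% lower. DESeq2 called 5 of the 9, with *Pdcd1lg2* added, and 13.9% of all genes. With no limit on the fold 6 of the 9 passed, against 19.8% of all genes. The brain libraries lay above all sham libraries for 6 of the 9 genes (22.1% of all genes) and below them for 1 (19.0%). This comparison shares its brain libraries with the one against stroke blood, so the values are set side by side and are not an independent repeat. *Cd274* had a log2 fold change of 2.74 against sham blood and 2.28 against stroke blood. For *Havcr2* the values were 2.48 and 2.61, for *Cd80* 1.86 and 2.10, and for *Cd86* 1.49 and 1.76. The edgeR adjusted p of these 4 genes against sham blood ran from 0.000674 to 0.0105. *Vsir* was lower than in sham blood by a log2 fold change of -0.87 (SE 0.13, edgeR adjusted p = 0.0047), and 7.68% of all genes were lower at an adjusted p under 0.05 regardless of fold. *Cd40* was 1.79-fold higher, short of the fold threshold (log2 fold change 0.84, SE 0.23, edgeR adjusted p = 0.0394). Its edgeR adjusted p was 0.05 or above in 5 of 6 fits with a library left out, at 0.0607 to 0.128, and 0.0316 without brain replicate 1. *Icosl* did not pass the test against sham blood, at 0.36 (SE 0.37, edgeR adjusted p = 0.528), and brain replicate 1 decided its direction, since the value without it was -0.11. *Pdcd1lg2* was at 1.60 (SE 0.56, adjusted p = 0.0842 with edgeR and 0.048 with DESeq2) and *Lgals9* at 0.30 (SE 0.19, edgeR adjusted p = 0.306).

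Levels of different genes were ordered within a group by TPM, transcripts per 1000000, which corrects for exon length. In stroke blood *Lgals9* (462.2 ± 64.9 TPM) and *Vsir* (353.4 ± 52.2 TPM) were the most abundant, with *Lgals9* above *Vsir* within each library but with ranges that overlapped across libraries. They were followed by *Cd86* (33.3 ± 6.87 TPM), *Cd40* (28.2 ± 5.92 TPM) and *Havcr2* (24.0 ± 10.7 TPM), whose ranges overlapped from each to the next, and then by *Cd274* (5.83 ± 2.56 TPM) and *Icosl* (5.58 ± 0.579 TPM), which overlapped too. *Cd80* (2.26 ± 0.488 TPM) and *Pdcd1lg2* (0.911 ± 0.700 TPM) came last. In the brain *Lgals9* (702.7 ± 74.5 TPM), *Vsir* (317.5 ± 19.1 TPM), *Havcr2* (203.4 ± 31.0 TPM) and *Cd86* (157.7 ± 9.63 TPM) followed each other without overlap. *Cd274* (39.6 ± 1.30 TPM) overlapped *Cd40* (38.8 ± 6.27 TPM), and *Icosl* (18.8 ± 9.93 TPM) overlapped *Cd80* (13.8 ± 4.76 TPM). TPM depends on the lengths and levels of all other transcripts in a library, so it was used for the order within a group and not to compare groups.

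**Figure D3:**
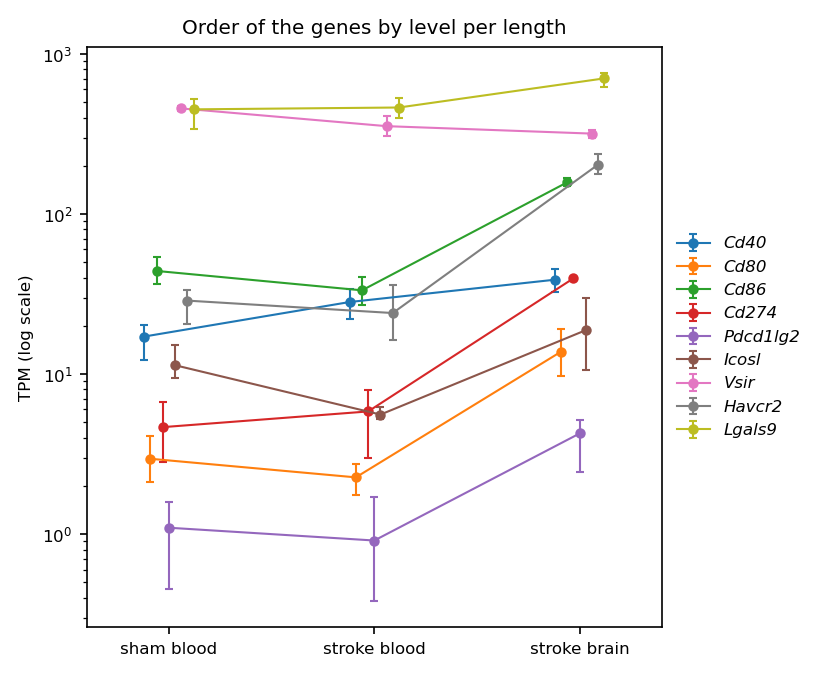
Mean TPM of the 9 genes (log axis) in the 3 groups, with whiskers from the lowest to the highest library; lines join the values of a gene and do not stand for a time course. *Lgals9* and *Vsir* lead in every group, and *Havcr2* and *Cd86* come next in the brain, at 203.4 and 157.7 TPM.

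Markers of other cells differed between the same groups. Among all genes tested between brain and stroke blood, 13.1% were DEGs higher in the brain and 7.86% lower. The 8 microglial markers, among them *Sall1*, *Tmem119* and *P2ry12*, were all DEGs higher in the brain than in stroke blood. Their summed level was 149.4 to 205.5 CPM in stroke blood and 1187, 1876 and 3492 CPM in brain replicates 1, 2 and 3. Of 12 dendritic cell markers 9 were DEGs higher in the brain, with a summed level of 147.8 to 265.5 CPM in stroke blood and 1019, 775.2 and 794.0 CPM in brain replicates 1 to 3, and *Ccl22* was at 0 in all blood libraries. *Cd209a* made up a large part of the brain sum, at 439.7 ± 33.7 CPM. *Batf3* was lower in the brain, short of the fold threshold (log2 fold change -0.83, SE 0.22, edgeR adjusted p = 0.0181). Brain replicate 1 had the highest dendritic and the lowest microglial sum, and it also held the highest *Cd80* and *Icosl* levels of the brain libraries, at 23.8 and 46.6 CPM. The same replicate held the lowest brain levels of *Cd86*, *Cd40*, *Vsir* and *Lgals9*, at 185.6, 37.6, 503.5 and 446.3 CPM. *Havcr2* was highest in brain replicate 2 and *Cd274* was nearly even across the brain libraries. Blood cell markers differed too: between brain and stroke blood 5 of 5 platelet and 4 of 4 erythroid markers were DEGs lower in the brain, with median log2 fold changes of -6.40 and -10.7. Of the border-associated macrophage markers 3 of 5 tested were higher and 1 lower, and of the neutrophil markers 2 of 4 tested were higher and 1 lower. *Ttr*, among the neural markers, had no count in blood and 1760, 334 and 944 counts in the brain. Microglia and dendritic cells can carry these ligands. The part of all these cell types in the differences between brain and blood was not tested. In bulk RNA, more cells of a type and more RNA per cell cannot be told apart.

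B cells are a known source of *Cd40* and *Icosl* transcripts, and a CD11b+ gate should remove most of them. The 8 B cell markers summed to 147.9 to 288.1 CPM in sham blood, 74.2 to 124.7 CPM in stroke blood and 49.97 to 98.98 CPM in the brain, with no marker at 0 in any group. Between stroke and sham blood 7 of the 8 had an unadjusted p below 0.05, where 12.5% of all genes did. None was a DEG, and their median log2 fold change was -1.70. In the same comparison T and NK cell markers had a median log2 fold change of -1.57 (5 of 8 with an unadjusted p below 0.05) and neutrophil markers of -2.27 (3 of 5 tested), with 0 DEGs in either list. Sham blood replicate 3 stood apart in the neutrophil list. The summed level was 695.8, 915.0 and 3017 CPM in sham blood replicates 1 to 3 and 462.0 to 789.0 CPM in stroke blood. *S100a8* had 846, 1650 and 17659 counts in those sham libraries. *Icosl* had a negative log2 fold change, like the medians of the B cell, T and NK cell and neutrophil lists, and *Cd40* a positive one. The part of these cells in either was not tested. *Lyz2*, at 97840 ± 3032 CPM in stroke blood and 38100 ± 2534 CPM in the brain, and *Ly6c2* were the 2 of 8 monocyte and macrophage markers that were DEGs, both lower in the brain.

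**Figure D4:**
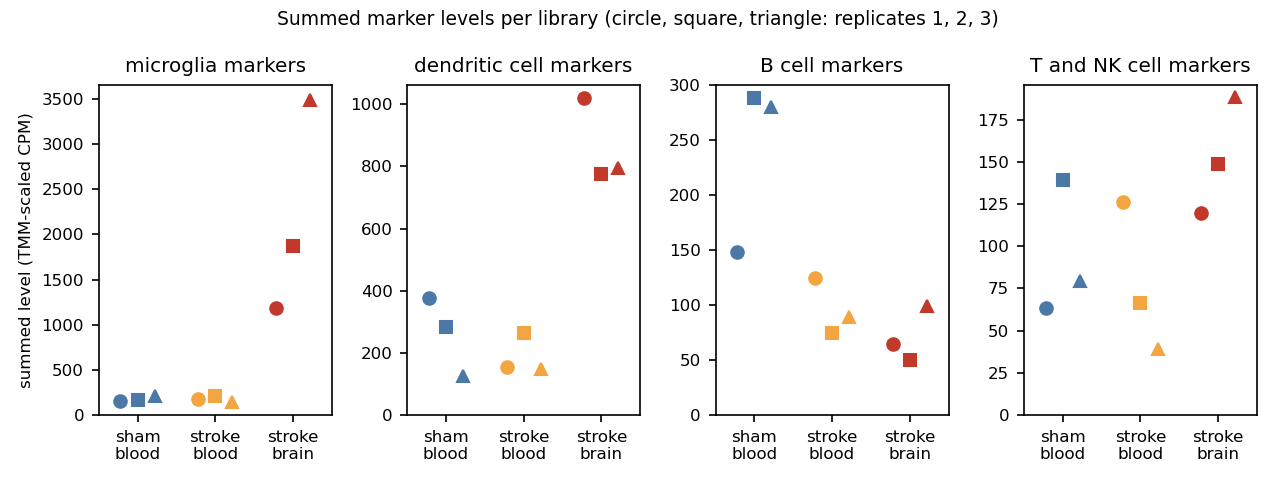
Summed TMM-scaled CPM of the marker lists for microglia, dendritic cells, B cells and T and NK cells in every library (circle, square and triangle are replicates 1, 2 and 3); each panel has its own axis from 0. The brain libraries lie above all blood libraries for the microglial and dendritic lists, and the 3 sham libraries lie above all others for the B cell list.

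The receptors and partners that these ligands bind on other cells were measured from the same libraries. Of 12 partners 10 were tested between brain and stroke blood, 3 were DEGs, all higher, and the median log2 fold change was 0.77 against 0.06 over all genes tested. Among all genes tested, 13.1% were DEGs higher in the brain and 7.86% lower, and these shares also apply to each list below. *Pdcd1*, encoding PD-1, had 8, 34 and 26 counts in stroke blood and 183, 44 and 94 in the brain (log2 fold change 2.08, SE 0.70, edgeR adjusted p = 0.0477). *Icos* had 5, 18 and 15 counts and 171, 34 and 44 counts (2.57, SE 0.80, edgeR adjusted p = 0.0369). Both were highest in brain replicate 1. *Rgmb*, a partner of PD-L2, was at 5.18 ± 2.06 CPM in stroke blood and 12.4 ± 4.96 CPM in the brain (1.31, SE 0.41, edgeR adjusted p = 0.0393). When libraries were left out in turn, *Pdcd1*, *Icos* and *Rgmb* were called in 1, 2 and 1 of 6 fits. Brain replicate 1 was among the libraries without which the calls of *Pdcd1* and *Icos* were lost. Against sham blood *Pdcd1* was the only partner called (log2 fold change 4.46, SE 0.71, edgeR adjusted p = 0.00592), in 6 of 6 such fits. The receptor genes *Cd28*, at 1.83 ± 1.28 CPM in stroke blood and 6.02 ± 3.59 CPM in the brain, and *Cd40lg*, at 0.475 ± 0.161 and 1.01 ± 1.10 CPM, did not pass the test, and *Ctla4* was too low to be tested. T and NK cell markers summed to 39.2 to 126.0 CPM in stroke blood and 119.8 to 188.3 CPM in the brain. Of the 8 markers 2 were DEGs higher in the brain, *Cd3d* (1.67, SE 0.35, edgeR adjusted p = 0.00688) and *Cd3g* (1.91, SE 0.40, edgeR adjusted p = 0.00707). The list's median log2 fold change was 1.53. Against sham blood 0 of the 8 were DEGs, where 13.4% of all genes were, and the median was 0.20. The part of T and NK cells in the partner genes was not tested.

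Of 7 other B7-type and adhesion-type ligands tested between brain and stroke blood, 3 were DEGs higher in the brain and 1 was a DEG lower. The median log2 fold change was 0.87. *Cd276*, the B7-H3 gene, had 36, 62 and 10 counts in stroke blood and 137, 423 and 365 in the brain (log2 fold change 2.90, SE 0.57, edgeR adjusted p = 0.00502). *Slamf7*, a self-binding receptor of the SLAM family, was at 21.3 ± 5.84 CPM in stroke blood and 78.5 ± 15.5 CPM in the brain (1.91, SE 0.26, edgeR adjusted p = 0.00073), and its relative *Slamf1* fell from 5.26 ± 0.311 to 1.14 ± 0.310 CPM (-2.16, SE 0.41, edgeR adjusted p = 0.00413). *Slamf1* had 0, 142 and 208 counts in sham blood, where platelet markers summed to 12.9, 342.1 and 497.7 CPM, and the part of platelets in its fall was not tested. *Cd2* just passed the fold threshold (1.01, SE 0.30, edgeR adjusted p = 0.0308) and was called in 2 of 6 fits with a library left out. Among TNF-family costimulatory ligands 3 of 7 were tested and *Tnfsf9*, encoding the 4-1BB ligand, was the DEG, with 136, 111 and 143 counts in stroke blood and 2338, 1844 and 1468 in the brain (3.66, SE 0.29, edgeR adjusted p = 4.3e-05).

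Other checkpoint ligands and receptors gave 6 DEGs of 13 tested, all higher, with a median log2 fold change of 1.09. The poliovirus receptor family ligands *Pvr*, at 12.2 ± 3.29 CPM in stroke blood and 40.2 ± 14.6 CPM in the brain, and *Nectin2*, at 1.00 ± 0.744 and 7.82 ± 1.08 CPM, were both higher (log2 fold changes 1.76 and 3.02, edgeR adjusted p = 0.00283 and 0.00729). So was their inhibitory receptor *Tigit*, at least 9.42-fold against the floor of 3 counts per library. Sham blood held more *Tigit* than stroke blood, with 4, 28 and 12 counts, or 0.722 ± 0.555 CPM against 1.49 ± 0.682 CPM in the brain. *Tigit* was not a DEG between brain and sham blood. *Lag3*, an inhibitory receptor for MHC class II, had at most 2 counts in any blood library and 75, 51 and 146 in the brain, at least 25.6-fold higher than stroke blood. *Cd200*, a ligand that restrains myeloid cells, went from 0.828 ± 0.398 to 7.80 ± 1.68 CPM (log2 fold change 3.28, SE 0.47, edgeR adjusted p = 0.00106). *Cd160* was higher at 2.18 (SE 0.54, edgeR adjusted p = 0.0143) but in 4 of 6 fits with a library left out.

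In the TIM family only 1 of the 3 relatives of *Havcr2* was tested. *Timd4*, a phosphatidylserine receptor of tissue macrophages, had no count in any blood library and 11, 115 and 92 in the brain. Its brain mean was 19.6-fold the level of 3 counts in a stroke blood library. The galectins *Lgals1* and *Lgals3* gave log2 fold changes of 0.23 (SE 0.19, edgeR adjusted p = 0.39) and -0.10 (SE 0.17, edgeR adjusted p = 0.674), close to that of *Lgals9*, and *Lgals8* was higher at 1.12 (SE 0.19, edgeR adjusted p = 0.00271). Of 10 genes of CD40 signalling *Traf1*, an adaptor that the pathway itself induces, was the DEG, at 17.6 ± 7.18 CPM in stroke blood and 95.8 ± 17.6 CPM in the brain (log2 fold change 2.48, SE 0.30, edgeR adjusted p = 0.000399), and the list's median was 0.39. *Relb* (0.88, SE 0.20, edgeR adjusted p = 0.00874) and *Traf2* (0.72, SE 0.20, edgeR adjusted p = 0.0249) were higher too, short of the fold threshold. Of 12 known regulators of PD-L1, 3 were DEGs, all higher, and the list's median was 0.40. *Myc* rose from 4.32 ± 0.900 to 32.4 ± 0.996 CPM (2.93, SE 0.24, edgeR adjusted p = 5.33e-05) and *Hif1a* from 86.6 ± 13.1 to 235.7 ± 37.5 CPM (1.48, SE 0.18, edgeR adjusted p = 0.000496), beside *Jak2*. In sham blood *Hif1a* was at 157.9 ± 96.1 CPM. Short of the fold threshold, *Irf2* was lower (-0.92, SE 0.23, edgeR adjusted p = 0.0146). *Stat3* and *Jak1* were higher, also short of it (0.55 and 0.48, edgeR adjusted p = 0.0235 and 0.0428). The interferon-induced factor *Irf1* (0.32, SE 0.16, edgeR adjusted p = 0.158) did not pass the test, and neither did *Cmtm6*, which keeps PD-L1 at the cell surface (0.10, SE 0.21, edgeR adjusted p = 0.751). Between stroke and sham blood 0 of the 54 genes tested in these 8 lists were DEGs by edgeR and 0 by DESeq2, where 0.0079% and 1.06% of all genes were. Of the 54, 4 had an unadjusted p below 0.05 with edgeR, against 12.5% of all genes. Against sham blood the brain libraries gave 14 DEGs among the 60 genes tested in the 8 lists, all higher, where 9.75% of all genes were DEGs higher. *Icos*, *Rgmb*, *Cd2*, *Slamf1*, *Tigit*, *Hif1a* and *Lgals8*, DEGs against stroke blood, were not among these 14. The PD-L1 regulator *Cmtm4*, 1 of the 14, was called in 0 of 6 fits with a library left out. Exons of an opposite-strand gene overlap those of *Cd276*, *Slamf7*, *Tnfsf9*, *Nectin2*, *Cd160*, *Hif1a*, *Lgals8* and *Irf1* by 2.57% to 14.9% of their exon bases.

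**Figure D5:**
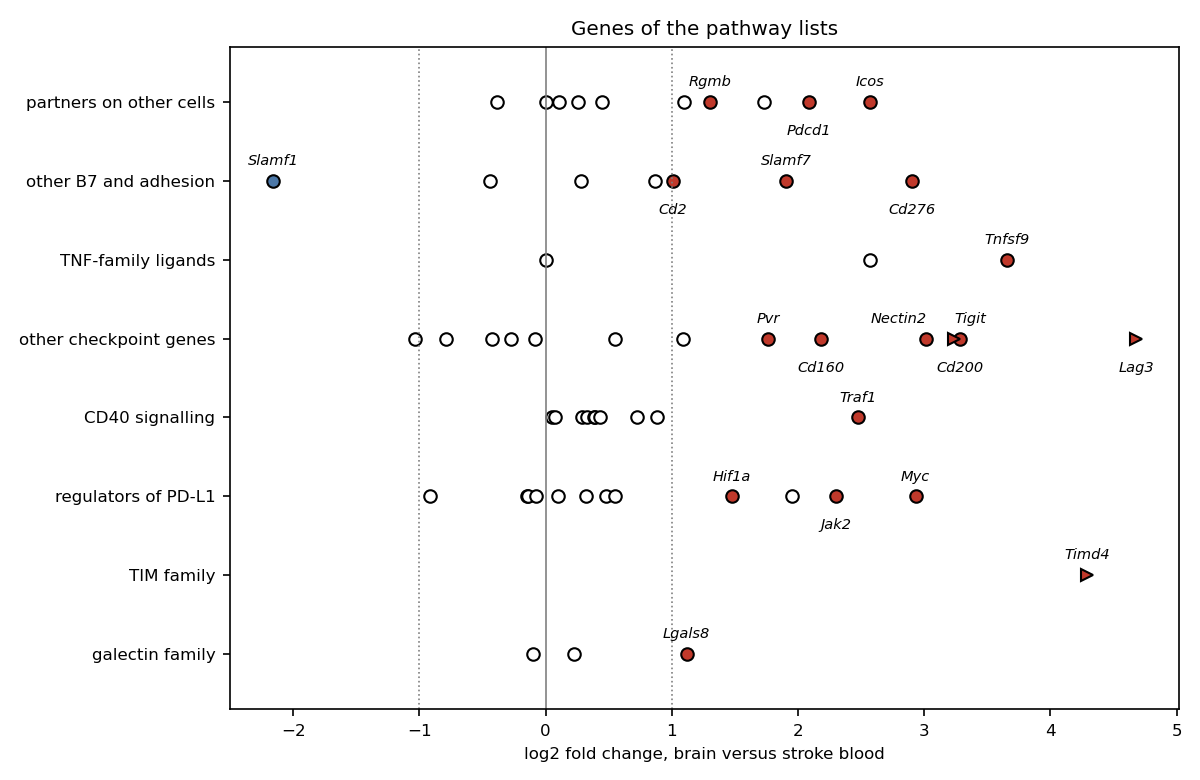
Log2 fold changes between brain and stroke blood of the tested genes in 8 lists around the 9 ligands and receptors. Red and blue points are DEGs that were higher or lower in the brain, and open points did not pass. Triangles mark genes with 3 counts or fewer in every stroke blood library and stand at the log2 ratio of the brain mean to the level of 3 counts. DEGs to the right include *Tnfsf9* at 3.66 and *Cd276* at 2.90, and *Slamf1* is the DEG to the left.

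For each DEG among the 9 genes, the genes with the most similar pattern were found among 11586 protein-coding genes as the smallest root-mean-square distance of standardised log2 CPM over the 9 libraries, in SD units. *Havcr2* was most like *Tbc1d10a* (0.0994), *Kcnn4* (0.0996), the gene of a calcium-activated potassium channel, and *Ivns1abp* (0.121). *Cd86* was most like *Atf3* (0.117), a stress-induced transcription factor, *Gas2l3* (0.118) and *Cadm1* (0.127). For *Cd274* they were *Cd36* (0.117), a scavenger receptor for lipids, *B4galt4* (0.175) and *Exosc2* (0.197), and for *Cd80* they were *Crem* (0.121), a cyclic AMP-responsive factor, *Lrrc57* (0.162) and *Tmem251* (0.164). The pattern of *Icosl* had no such close match, its nearest genes *Nvl*, *Sde2* and *Itga5* being at 0.319, 0.338 and 0.350. Among the 9 genes themselves *Cd86* and *Havcr2* were closest, at 0.172. The 9 libraries share 3 groups, so these distances largely compare group means.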

How the data were processed

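RNA-seq was performed on sorted monocytes/macrophages (9 libraries, 3 per group, male C57BL/6J mice aged 9 weeks). Per the labels and the study's methods, the authors amplified cDNA with SMART-Seq HT, prepared Nextera XT libraries, aligned paired-end reads to GRCm38 with HISAT2 and made the deposited raw read counts per Ensembl gene with HTSeq. Versions, annotation release and strand setting are not given in the sources used here. The protocol names no molecular identifiers, so counting limits (3 counts per library) cover counting error only.

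Counts were tested with edgeR 4.0.16 (quasi-likelihood, TMM, filterByExpr, R 4.3.3) for each pair of groups, and DESeq2 1.42.0 was an alternative. Standard errors and 95% intervals come from the same fit. Count ratios within a library used a pseudocount of 0.5 and exact permutation tests (scipy 1.17.1). TPM used union exon lengths of GENCODE M21. Tested on simulated data for brain versus stroke blood (12815 genes), edgeR recovered 178 of 200 genes changed by a log2 fold of 2, with 13 false calls. The changed genes were drawn above a limit on mean counts, so scarce genes such as *Pdcd1lg2* and smaller changes were not covered.

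Genes were named if they were among the 9, were DEGs of a list, or were list genes related to a member under discussion, and for each DEG among the 9 the 3 nearest genes in pattern (log2 CPM, prior count 2) were added. The 9 genes and all lists were chosen with earlier results of these data known. Alternatives were RLE or no scaling, no filter, DESeq2, 1 fit of all 9 libraries, a replicate block, no fold threshold, a ratio pseudocount of 5 and leaving out each library. The values of 1 list gene are not reported here.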

Additional observations from a re-analysis of the deposited data

How the results depend on the processing

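*Cd80*, *Cd86*, *Cd274* and *Havcr2* were DEGs in both brain comparisons under all alternatives run. Over the 27 log2 fold changes of the 9 genes and their alternatives, 305 values kept direction and side of the threshold, 12 changed sign, 3 passed and 4 lost the threshold. The cause of these changes was not tested. *Cd40* between brain and stroke blood was 0.13 with library size only and -0.20 to 0.10 with a library left out (0.03 without stroke blood replicate 3, 0.10 without brain replicate 1). *Lgals9* there was -0.029 to 0.24 with a library left out (-0.029 and -0.019 without stroke blood replicate 1 and 2). Between stroke and sham blood, leaving out a library gave -0.43 to 0.089 for *Cd80*, -0.97 to 0.25 for *Pdcd1lg2* and -0.48 to 0.029 for *Havcr2*, and between brain and sham blood -0.11 to 0.64 for *Icosl*.

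Over all genes, DEGs between stroke and sham blood numbered 1, but 160 with no filter on low counts, 127 with DESeq2 and 0 to 16 with a library left out (16 without sham blood replicate 1). Between brain and sham blood they numbered 1748, but 2026 with no filter on low counts and 2326 with DESeq2. With a library left out they numbered 1146 (without sham blood replicate 3) to 1883. With no fold threshold the brain comparisons had 4035 and 2572 genes.

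With the replicate number as a block, the 9 genes gave 5, 0 and 4 DEGs (brain against stroke blood, stroke against sham blood, brain against sham blood), as without it, and all genes gave 2634, 1 and 1571. *Cd40* between brain and sham blood had an adjusted p of 0.0568 under the block (edgeR), and the partner genes *Pdcd1* and *Icos* were lost against stroke blood (edgeR adjusted p = 0.117 and 0.113). Same-numbered libraries deviated together no more than others (correlations of -0.0702 to 0.0663 against -0.0804 to 0.115). This gave no sign of pairing by number, but it cannot exclude a shared run or sorting day. Low counts limit *Pdcd1lg2* and the receptor genes, and a gene below 3 counts per library was not detectable at this depth.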
